A study of Mus musculus with 29 samples.

Results

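Nts, Nnat and Shisa9 are 3 of the 24770 gene symbols in a table of RNA-seq counts from brown adipose tissue (BAT) and gastrocnemius skeletal muscle (SkM) of mice under calorie restriction, exercise training or both. They were chosen by their measured fall in BAT under restriction, so those values are given as a description without a test. All mice were wild-type C57BL/6J males, housed alike, aged 8 weeks at the start and treated for 8 weeks. Control mice ate ad libitum and stayed sedentary. CR mice were brought down stepwise to 70% of the ad libitum intake, EX mice ran on a treadmill, and CREX mice had both treatments. BAT gave 15 libraries (3 control, 4 EX, 4 CR and 4 CREX) and SkM gave 14 (4 control, 4 EX, 3 CR and 3 CREX). Every mouse was fasted before tissue collection, and trained mice were sampled a day after the last run, so all values were obtained in fasted animals.

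Nts encodes the precursor of neurotensin and neuromedin N, short peptides best known from gut and brain that act through the receptors Ntsr1, Ntsr2 and the sorting receptor sortilin (Sort1). In adipose tissue, lymphatic endothelial cells are a known source of neurotensin, which dampens heat production in BAT. Nnat encodes neuronatin, a small membrane protein of the endoplasmic reticulum that resembles phospholamban, a brake on the SERCA calcium pumps, and the gene is imprinted, being expressed from the paternal copy. Shisa9 encodes a membrane protein known as an auxiliary subunit of AMPA glutamate receptors at synapses.

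Levels are given in CPM, that is, counts scaled to a common library size, here with TMM factors over the libraries of a tissue. Totals ran from 21047242 to 24919377 counts per library in BAT and from 23050918 to 23425284 in SkM. At this depth 3 counts stood at 0.119 to 0.143 CPM in BAT, and the restricted values of Nts and Shisa9 there rested on 0 to 5 counts per library. Ucp1, the uncoupling protein that defines brown fat, averaged 4257 ± 451 CPM (SD, n = 3) in control BAT and 0.0347 CPM in control SkM, in accord with the tissue labels. The BAT libraries carried very different amounts of muscle RNA, with a mean log2(CPM + 1) of 10 muscle markers from 0.395 to 8.92. In SkM, Adipoq, the adipocyte hormone gene, ranged from 0 to 14.5 CPM. A gene was called changed when edgeR's quasi-likelihood test, with Benjamini-Hochberg adjustment over all genes tested, gave p under 0.05 and the fold exceeded 1.5. The labels number samples, so p-values measure the spread between these samples. In bulk tissue, fewer cells of a type and less RNA per cell cannot be told apart.

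Nts was nearly lost from BAT under CR and was low under CREX. The gene lies on chromosome 10 (102481756 to 102490418, minus strand, build GRCm38), and the 250 bases before its RefSeq start, chr10:102490419-102490668 on the minus strand, are shown because a pair of motifs linked to cyclic AMP and stress signalling occur there. GENCODE places the start further upstream, at 102490486. Capitals mark matches to AP-1 (TGANTCA), to a near match of the cyclic AMP response element (TGACNTCA) and to a TATA box (TATANA), searched on both strands.

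Nts: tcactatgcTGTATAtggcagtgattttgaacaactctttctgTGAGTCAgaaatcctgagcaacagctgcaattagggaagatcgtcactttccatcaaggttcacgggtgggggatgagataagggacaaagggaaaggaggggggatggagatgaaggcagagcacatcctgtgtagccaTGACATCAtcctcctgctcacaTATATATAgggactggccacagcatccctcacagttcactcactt

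The AP-1 match began 207 bases and the cyclic AMP element match 67 bases upstream of the RefSeq start. AP-1 letters were found in 6.75%, cyclic AMP element letters in 7.49% and TATA letters in 22.6% of the 32851 promoter windows of this length. The 3 TATA matches included an overlapping pair near the RefSeq start, and no match of one motif overlapped a match of another. By the GENCODE start, that pair and the cyclic AMP element match lie inside the transcript. A match describes letters only and says nothing of binding in these mice.

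Nts counts in control BAT were 33, 31 and 16, a mean of 1.12 ± 0.409 CPM (SD, n = 3). In EX BAT they were 13, 15, 24 and 5, or 0.624 ± 0.317 CPM (n = 4). The 4 CR libraries held 1, 0, 1 and 2 counts, or 0.0423 ± 0.0347 CPM. The 4 CREX libraries held 2, 5, 3 and 4 counts, or 0.146 ± 0.0598 CPM. Every CR library lay below every control and EX library, while the highest CREX library, at 0.221 CPM, was level with the lowest EX library at 0.217 CPM. The summed counts were 25.5-fold lower in CR than in control (95% exact interval 9.59 to 95.9) and 4.36-fold lower in CREX than in EX (2.40 to 8.48). These intervals, like those below, cover counting error only. The fitted log2 difference between CR and control was -4.52 with a standard error of 0.53, the second lowest of 13323 genes tested. Nts did not pass the low-count filter in CREX against EX, where a fit without the filter gave -2.06 with a standard error of 0.51.

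Nnat showed the most even fall of the members, about as large with training as without it. It lies on chromosome 2 (157560078 to 157562525, plus strand), inside the gene Blcap, which is read from the opposite strand. None of its 1829 exonic bases overlapped a Blcap exon (0 bases in GENCODE), although 3 of the 6 Blcap transcripts span it. The counting command in the study's methods names no strand option, so that intronic Blcap reads inside Nnat could not be told from Nnat reads by strand. The 250 bases before its start, chr2:157559828-157560077 on the plus strand, are shown for contrast with Nts, with capitals marking the only match found, to the TGTTCT element of glucocorticoid receptor sites on the opposite strand.

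Nnat: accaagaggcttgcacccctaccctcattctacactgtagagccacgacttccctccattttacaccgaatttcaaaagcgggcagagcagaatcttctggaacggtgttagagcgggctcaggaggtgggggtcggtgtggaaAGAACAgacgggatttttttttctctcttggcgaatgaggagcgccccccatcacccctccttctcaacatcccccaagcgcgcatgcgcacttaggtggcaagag

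The TGTTCT letters were present in 16.1% of the promoter windows, and an E-box (CACGTG), present in 6.02%, was found in neither sequence. The Nnat window held 12 CpG pairs and the Nts window 2, against a median of 6 over all windows, and 33.5% of windows held at least as many as Nnat. Both sequences are from the RefSeq promoters of GRCm38, which matched 2 of the 3 genes.

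Nnat counts were 269, 487 and 143 in control BAT, or 12.4 ± 6.86 CPM (n = 3). EX libraries held 90, 389, 397 and 231 counts, or 12.1 ± 6.29 CPM (n = 4). CR libraries held 36, 33, 12 and 27 counts, or 1.19 ± 0.507 CPM, and CREX libraries held 31, 20, 33 and 25, or 1.12 ± 0.219 CPM. The lowest ad libitum library, at 4.16 CPM in EX, stood well above the highest restricted one, at 1.57 CPM in CR. Summed counts were 10.6-fold lower in CR than in control (8.69 to 13.1) and 10.9-fold lower in CREX than in EX (8.93 to 13.4). The fitted log2 differences were -3.38 with a standard error of 0.52, and -3.43 with a standard error of 0.47. They ranked sixth and seventh from the lowest among all genes tested. Among the ad libitum libraries Nnat ranged from 4.16 to 19.6 CPM, and the control and EX ranges overlapped.

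Shisa9, on chromosome 16 (11983593 to 12270904, plus strand), was low already in EX. Control BAT held 23, 13 and 25 counts, or 0.852 ± 0.286 CPM (n = 3), and EX BAT 7, 5, 4 and 1, or 0.190 ± 0.118 CPM (n = 4). CR libraries held 0, 1, 2 and 0 counts, or 0.0324 ± 0.0400 CPM, and CREX libraries 3, 2, 2 and 0, or 0.0726 ± 0.0510 CPM. Control libraries stood apart from all others, whereas EX and CREX overlapped. Summed counts were 25.9-fold lower in CR than in control (8.47 to 129) and 2.60-fold lower in CREX than in EX (1.03 to 7.42). The fitted log2 difference between CR and control was -4.49 with a standard error of 0.62, the third lowest. In CREX against EX the gene failed the low-count filter, and the fit without it gave -1.31 with a standard error of 0.77.

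**Figure D1:**
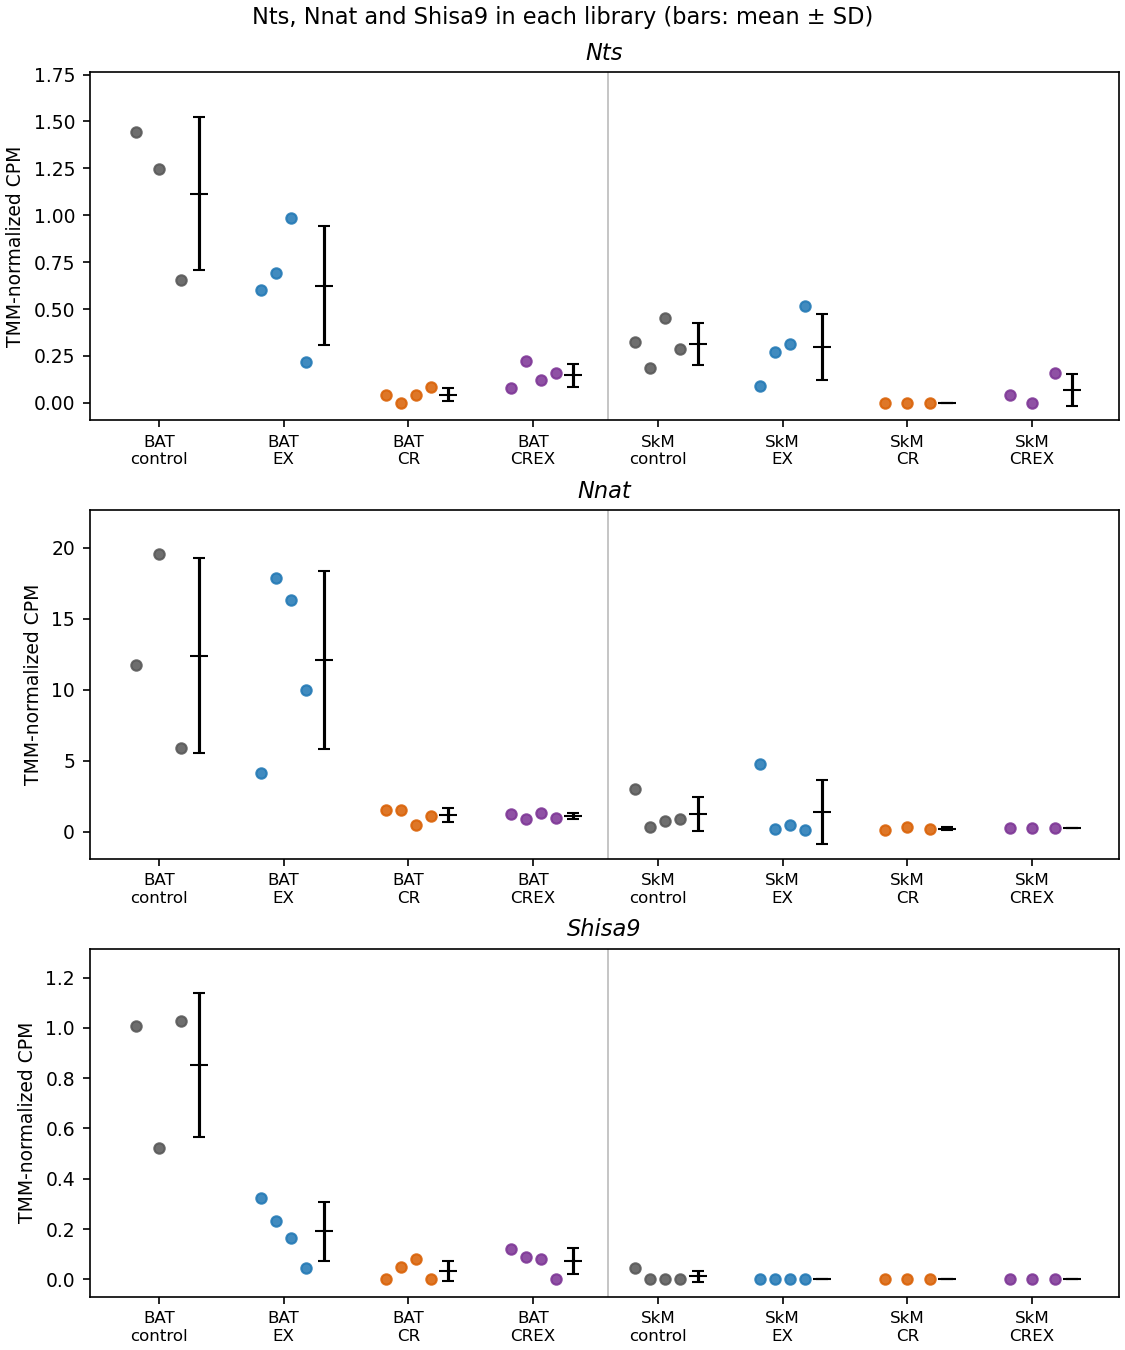
TMM-normalized CPM of Nts, Nnat and Shisa9 (linear axes) in each of the 29 libraries, as points by tissue and group, with mean and SD as bars. In BAT all 3 genes are lower in CR and CREX than in control, Nts and Shisa9 near the floor and Nnat at about 1.19 and 1.12 CPM, Shisa9 is also low in EX, and Nnat in SkM is high in 1 EX and 1 control library.

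By the thresholds above, 6.86% of all genes tested were called lower and 3.87% higher in BAT under CR, and all 3 members were among the former. In CREX against EX 2.63% were called lower and 1.86% higher, and Nnat was the only member both tested and called. The members were chosen on these contrasts, so nothing is read from those counts. A muscle marker covariate left the CR differences at -4.78 for Nts, and the sign of the others did not change.

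The effect of training was no part of the choice of genes, but EX against control shares its control libraries with the contrast that was, in which the members are high. No gene was called in BAT by edgeR (0%), while 272 genes had an unadjusted p under 0.05 beyond that fold and DESeq2 called 37. Shisa9 was 4.52-fold lower in EX by summed counts (2.60 to 8.25), with a log2 fold change of -2.14, a standard error of 0.49, an unadjusted p of 0.00173 and an adjusted p of 0.363. All 4 EX libraries lay below all 3 control libraries (exact two-sided permutation p = 0.0286, the smallest that 3 against 4 allows, 1 of 16 such tests). The control values are those in which Shisa9 was chosen as high, so nothing is read from these p-values. Nts had a log2 fold change of -0.83 (adjusted p = 0.722) with overlapping libraries, and Nnat one of -0.03 (adjusted p = 0.994) with a standard error of 0.62.

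Training on top of restriction, CREX against CR, gave 0.00763% of genes called in BAT, which was 1 gene and no member. Nnat had a log2 fold change of -0.08 with a standard error of 0.33 (adjusted p = 0.974). Nts was 3.31-fold higher in CREX by summed counts (1.04 to 13.8), at 14 counts against 4. Without the low-count filter its log2 fold change was 1.62 with a standard error of 0.77 (adjusted p = 0.775), and the libraries overlapped (exact permutation p = 0.0571). Shisa9, at 7 counts against 3, had a ratio of 2.21 (0.504 to 13.2), which this depth cannot tell from no difference. Both groups belong to the contrasts in which the members were chosen as low, so nothing is read from these p-values.

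SkM libraries played no part in the choice of genes, and there Nts fell as well. Its counts were 7, 4, 10 and 7 in control, or 0.314 ± 0.111 CPM (n = 4), and 0, 0 and 0 in CR. By the 95% exact interval of the summed counts, Nts was at least 5.92-fold lower, and a floor of 3 counts over the CR group gives 7.78-fold. Nts missed the low-count filter in SkM, and a fit without it called the gene lower (adjusted p = 0.00174 by edgeR, 0.00186 by DESeq2). In that fit 3.5% of 21442 genes were called lower, against 5.32% lower and 4.27% higher with the filter. The exact permutation p was 0.0286, the smallest possible. The call held in every alternative that kept the gene, with adjusted p-values from 0.00171 to 0.0375.

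With training, the muscle values of Nts were 2, 6, 7 and 11 counts in EX and 1, 0 and 4 in CREX. This was a 4.33-fold lower summed count (1.64 to 14.4), but the libraries overlapped and no call was made (log2 fold change -2.04, standard error 0.83, adjusted p = 0.139, exact permutation p = 0.0857). In this comparison 5.17% of genes were called lower and 3.7% higher. Whether training altered the effect of restriction on Nts was tested as an interaction without the filter and did not pass correction (difference 3.84 on the log2 scale, standard error 1.65, adjusted p = 1). EX alone left Nts within the spread (log2 fold change -0.08, standard error 0.49, adjusted p = 0.999), in a comparison where 0.0775% of genes were called. In CREX against CR, with 5 counts against 0, no difference was detectable at this depth (exact permutation p = 0.4). No gene was called there by edgeR (0%), while 311 had an unadjusted p under 0.05 with that fold change and DESeq2 called 36.

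Nnat in muscle depended on single libraries. Control counts were 65, 8, 17 and 22, or 1.27 ± 1.18 CPM (n = 4), and EX counts were 106, 4, 11 and 3, or 1.39 ± 2.25 CPM (n = 4). CR counts were 3, 9 and 6, or 0.238 ± 0.110 CPM (n = 3), and CREX counts were 7, 7 and 7. All CR libraries lay below all control libraries on the CPM scale. The 5.19-fold lower summed count in CR (3.14 to 9.07) corresponded to a log2 fold change of -2.36 with a standard error of 0.72, just short of the threshold (adjusted p = 0.0545). DESeq2 (adjusted p = 0.0096) and edgeR without the second control library (adjusted p = 0.0343) called it, whereas the fit without a low-count filter did not (adjusted p = 0.135). The first control library held 65 of the 112 control counts. Without it Nnat missed the filter, and the fit with no filter gave -1.49 (adjusted p = 0.0627).

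In CREX against EX the fit without the filter gave Nnat a log2 fold change of -2.27 with a standard error of 1.54 (adjusted p = 0.464). Without the first EX library it was 0.06. That library held 4.76 CPM of Nnat and 12.7 CPM of Adipoq, while the other EX libraries reached at most 0.495 CPM of Nnat and 0.270 CPM of Adipoq. Among CR and CREX muscle, however, 3 libraries with 10.04 to 14.5 CPM of Adipoq held only 0.133 to 0.286 CPM of Nnat. High Adipoq thus came with high Nnat in the ad libitum library and with low Nnat in the restricted ones. The part of adipocyte RNA in the muscle values was not tested. Shisa9 gave 1 count in all 14 muscle libraries, which supports no comparison.

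**Figure D2:**
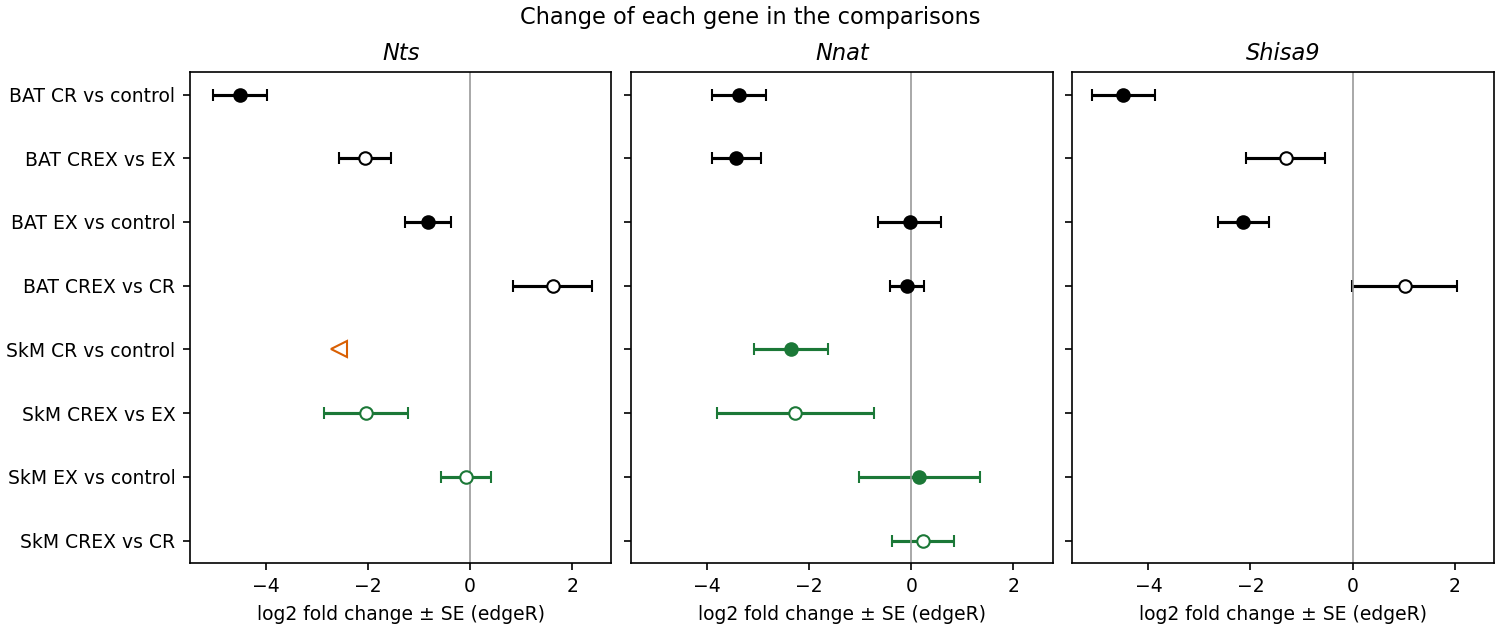
Log2 fold change ± SE from edgeR for each gene (shared linear axis) in the BAT comparisons (black) and SkM comparisons (green), with filled points for fits with the low-count filter and open points for fits without it. The orange triangle is the bound for Nts in SkM CR (at least 5.92-fold lower), and Shisa9 in SkM and Nts in SkM CREX vs CR are left out for want of counts. The restriction comparisons lie left of 0, and Nnat sits near 0 for training in BAT.

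Of the neurotensin receptors, Ntsr2 rose in BAT where its ligand gene fell, while Ntsr1 is absent from the count table and was not examined. Ntsr2 counts were 11, 9 and 13 in control and 24, 19, 32 and 29 in CR, and the libraries did not overlap. The level went from 0.459 ± 0.0885 to 1.12 ± 0.185 CPM, a log2 fold change of 1.29 with a standard error of 0.27 (adjusted p = 0.00891). In trained mice it went from 0.497 ± 0.217 CPM in EX to 1.36 ± 0.215 in CREX (log2 fold change 1.44, standard error 0.32, adjusted p = 0.0252), again without overlap, and was called in 4 of 8 fits that each left out 1 library (lost without EX replicate 3 or CREX replicate 2, 3 or 4). In SkM the corresponding log2 fold changes of Ntsr2 were 0.28 (adjusted p = 0.531) and 1.07 (adjusted p = 0.0515), neither called.

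Sort1 stayed near 200 CPM in BAT, with log2 fold changes of -0.06 (adjusted p = 0.533) and 0.07 (adjusted p = 0.492). In SkM Sort1 rose, from 62.6 ± 6.61 to 102 ± 27.7 CPM under CR (log2 fold change 0.71, adjusted p = 0.0206). That call was lost without the first CR library (0.48, below the fold minimum). It was also lost without control replicate 2 (adjusted p = 0.0598) or 4 (adjusted p = 0.0517). Sort1 also rose in SkM from 57.6 ± 5.80 to 127 ± 37.5 CPM in CREX against EX (log2 fold change 1.13, adjusted p = 0.00877). The related sorting receptor Sorl1 rose in BAT under CR (0.71 on the log2 scale, adjusted p = 0.0417) and was at 0.47 in CREX against EX (adjusted p = 0.221). The Sorl1 call under CR was lost whichever of the 7 libraries was left out (0.50 to 0.83). Of the 8 tested genes for neurotensin receptors, peptide processing and breakdown, 2 were called higher under CR and 1 in CREX, none lower. Over all genes tested, 3.87% were called higher under CR and 1.86% in CREX against EX. The median log2 differences of the 8 genes were -0.0015 and 0.0168, against 0.0045 and -0.0020 over all genes tested.

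Over all genes tested, 6.86% were called lower and 3.87% higher in BAT under CR. Of the other neuropeptide precursors only 3 passed the low-count filter, and none of these was called lower. Among them, Nmb (neuromedin B) and Penk (proenkephalin) rose in BAT under CR, by 0.90 (adjusted p = 0.00885) and 0.87 (adjusted p = 0.0325) on the log2 scale, and Nucb2, the nesfatin precursor, was at 0.02 (adjusted p = 0.956). In CREX against EX the 3 log2 fold changes were 0.42 (adjusted p = 0.139), 0.34 (adjusted p = 0.509) and -0.33 (adjusted p = 0.366). The Penk call under CR was kept in 2 of 7 fits that each left out 1 library, with adjusted p-values up to 0.109. Pomc, the precursor of the melanocortins, was below the filter and is named after its values were seen. Its BAT libraries held 0.263 to 0.288 CPM in control, 0.304 to 0.370 in EX, 0.0477 to 0.216 in CR and 0.119 to 0.278 in CREX, at 1 to 9 counts each and without a test. Nothing is read from the Pomc ranges at so few counts. Sums over the 12 precursors in the count table were 5.59 to 6.61 CPM in control and 8.42 to 9.58 in CR. In EX they were 5.60 to 8.71 CPM and in CREX 7.48 to 8.39.

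The nearest protein-coding gene to Nts in the count table is Rassf9, 21.8 kb away on chromosome 10 (102512222 to 102549737), whose product binds the peptide-amidating enzyme PAM. Rassf9 also fell in BAT. Its counts were 106, 110 and 96 in control and 39, 22, 61 and 42 in CR. EX libraries held 133, 88, 117 and 72 counts and CREX libraries 29, 46, 53 and 40. Neither pair of groups overlapped, and the log2 fold changes were -1.29 (standard error 0.24, adjusted p = 0.00442) and -1.38 (standard error 0.25, adjusted p = 0.012). In SkM they were -0.73 (adjusted p = 0.214) and -0.97 (adjusted p = 0.0982). Cpped1, the nearest such gene to Shisa9 at 74.1 kb, had BAT log2 fold changes of -0.08 (adjusted p = 0.443) and 0.001 (adjusted p = 0.995).

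Blcap, the host gene of Nnat, did not follow it. Blcap averaged 58.0 ± 4.54 CPM in control and 51.2 ± 4.08 in CR BAT (log2 fold change -0.18, adjusted p = 0.138). It averaged 49.3 ± 5.13 in EX and 47.5 ± 4.73 in CREX (-0.05, adjusted p = 0.775). Most imprinted genes tested lay in the same direction as Nnat, but with a far smaller median difference. Of 19 tested in CR, 13 were lower and 6 higher, with a median log2 difference of -0.26 against 0.0045 for all genes. Of the 19, 3 were called lower and none higher, while 6.86% of all genes tested were called lower. Of 21 tested in CREX against EX, 18 were lower and 3 higher, with a median of -0.19 against -0.0020. Of the 21, 2 were called lower, while 2.63% of all genes tested were.

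Among those imprinted genes, Dlk1, an inhibitor of adipocyte formation, fell in both, with log2 fold changes of -1.31 in CR (adjusted p = 0.0117) and -1.84 in CREX (adjusted p = 0.022). The cell cycle inhibitor Cdkn1c fell likewise, at -0.74 (adjusted p = 0.0034) and -0.72 (adjusted p = 0.022), without overlap of libraries. The Dlk1 call in CR was lost without the first control library (-1.04, adjusted p = 0.0571) and that in CREX without CREX replicate 1 or 4, while Cdkn1c in CREX was called in 3 of 8 such fits. Gnas, encoding the stimulatory G protein alpha subunit, fell in CR (-0.59, adjusted p = 0.000559), and its CREX value of -0.37 was not called. In CR, Gnas was at -0.54 without the first control library and at -0.56 without CR replicate 4, both below the fold minimum. In SkM, Cdkn1c instead rose, by 1.03 (adjusted p = 0.00649) and 0.77 (adjusted p = 0.0225), the latter called in 2 of 7 fits with 1 library left out. Mest, an imprinted gene whose expression goes with fat expansion, had log2 values of -1.02 (adjusted p = 0.0735) and -3.88 (adjusted p = 0.232) in BAT. The second Mest value rests on the third EX library, which reached 36.5 CPM against a median of 0.647 in EX, and without it was 0.07 (adjusted p = 0.941).

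Of the pumps that neuronatin is thought to act on, Atp2a2 (SERCA2) was steady in BAT at 153 ± 7.37 CPM in control and 155 ± 14.5 in CR (log2 fold change 0.02, adjusted p = 0.889). Phospholamban (Pln) was at -0.52 (adjusted p = 0.423) in CR and 0.03 (adjusted p = 0.967) in CREX. The muscle pump Atp2a1 varied widely in BAT, with an SD of 150 around 121 CPM in CR, and this pump is itself one of the muscle markers. In SkM the pump regulator sarcolipin (Sln) rose from 1.65 ± 0.572 to 6.68 ± 2.03 CPM under CR (log2 fold change 2.02, adjusted p = 0.0013) and by 2.73 in CREX (adjusted p = 0.035). The CREX value of Sln rests in part on the third CREX library and was 1.64 without it (adjusted p = 0.0183). The call was lost without the second CREX library or any 1 of the EX libraries (adjusted p up to 0.0914).

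**Figure D3:**
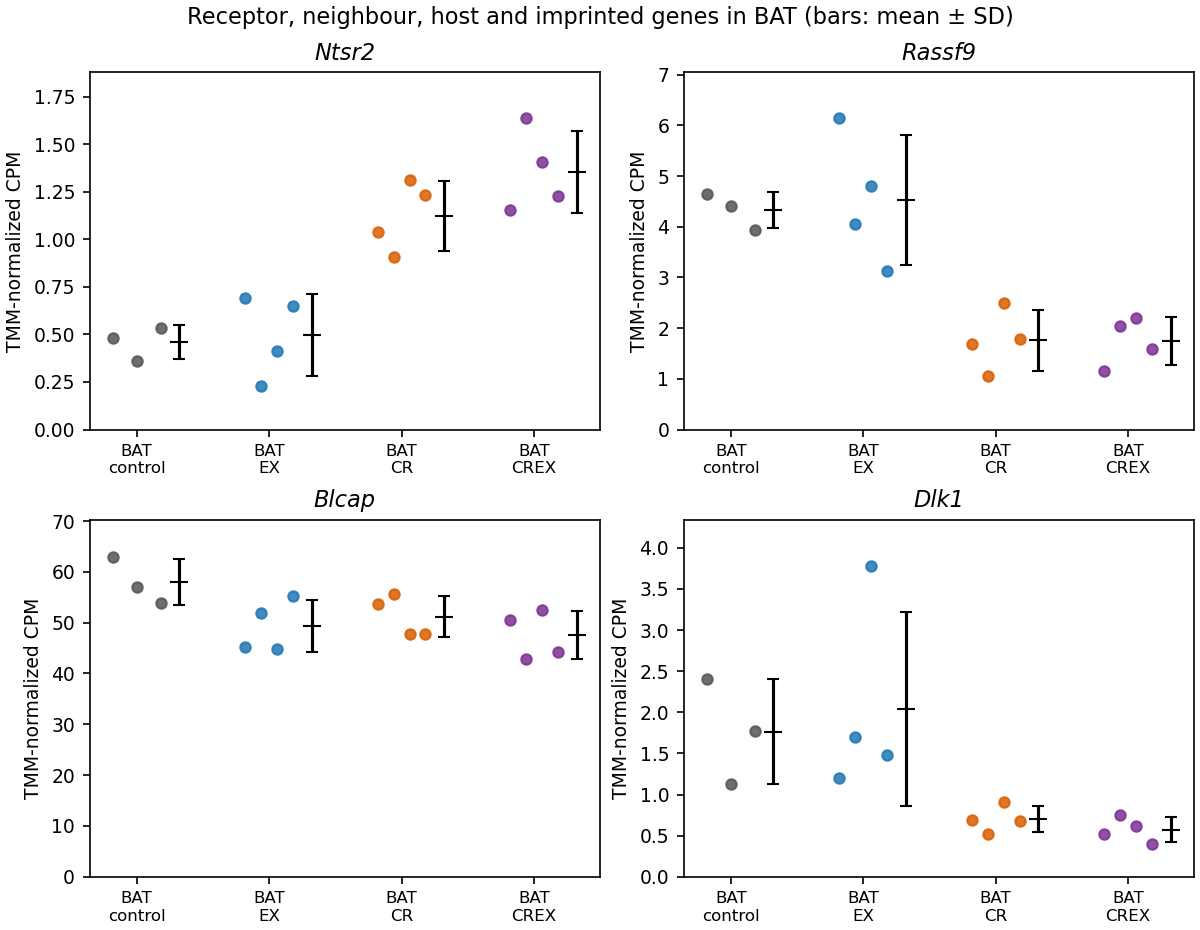
TMM-normalized CPM (linear axes) in each BAT library of Ntsr2 (a neurotensin receptor), Rassf9 (next to Nts), Blcap (host gene of Nnat) and Dlk1 (imprinted), with mean and SD as bars. Ntsr2 is higher and Rassf9 and Dlk1 are lower in CR and CREX without overlap with their comparison groups, while Blcap overlaps.

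The AMPA receptor subunits that Shisa9 is known to accompany were barely present in BAT. Gria1 and Gria2 gave at most 1 count in any BAT library. Gria3 averaged 0.153 CPM in control and 0.0526 in CR, and Gria4 0.178 and 0.0983 CPM, all below the filter. Of the auxiliary subunits, Cacng7 fell from 2.32 ± 0.229 to 1.12 ± 0.200 CPM in CR (log2 fold change -1.05, adjusted p = 0.00589) and in CREX (-0.72, adjusted p = 0.0478), where the Cacng7 call was lost whichever of the 8 libraries was left out. Cnih2 rose in CR (2.51 on the log2 scale, adjusted p = 0.00343), from 0.0967 CPM. Of the 5 tested genes of this list 1 was called in each direction in CR, and of 4 tested in CREX 1 was called lower. Over all genes tested, 6.86% were called lower and 3.87% higher in CR, and 2.63% lower in CREX against EX.

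Close relatives of Shisa9 were also scarce. Shisa7 averaged 0.648 ± 0.171 CPM in control and 0.190 ± 0.178 in CR, without overlap, but was not called (log2 fold change -1.71, standard error 0.60, adjusted p = 0.0664). In CREX against EX its log2 fold change was -1.12 (adjusted p = 0.134). Shisa6 averaged 0.207 CPM in control and 0.151 in CR, and Shisa8 0.0274 and 0.0358, both under the filter. Shisa5, a family member of the endoplasmic reticulum, passed the adjusted p in CREX (0.0291) with a log2 fold change of -0.40, below the fold minimum.

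Over the 15 BAT libraries, the members were compared with 13922 genes by Pearson correlation of log2(CPM + 0.5), as a description in which all points share the 4 groups. Nts was most like Cdon (r = 0.963), a hedgehog co-receptor, Hes1 (0.956), a Notch target, and Mcam (0.942), an adhesion molecule of vessels. Nnat was most like the adaptor Gab2 (0.948), H2-Q6 (0.946) of the multigene major histocompatibility family, whose reads may be split among near copies, and Pdgfrb (0.942), the platelet-derived growth factor receptor of mural cells. Shisa9 was most like the metal transporter Slc39a8 (0.905), Gm33838 (0.901) and the basement membrane collagen Col4a1 (0.886). The members correlated at 0.860 for Nts with Nnat, 0.799 for Nts with Shisa9 and 0.584 for Nnat with Shisa9. After group means were removed these values were 0.380, 0.106 and -0.526. Nts and Shisa9 held only 0 to 5 counts in the restricted libraries. Whether the members rose and fell together within groups was not tested.

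Markers of other cells moved with the members in part. The 11 lymphatic endothelium markers summed to 104 to 120 CPM in control BAT, 80.1 to 91.0 in EX, 45.6 to 58.7 in CR and 51.7 to 58.1 in CREX, with none at 0 throughout a group. Most of this was Nrp2, a receptor not restricted to lymphatics, which was the 1 marker of 8 tested to be called lower in either restriction comparison. Without Nrp2 the other 10 markers summed to 10.6 to 13.1 CPM in control, 10.9 to 20.8 in EX, 10.5 to 16.4 in CR and 13.1 to 16.8 in CREX. These ranges overlapped, and this sum was formed after the data were seen. The part of lymphatic cells in the fall of Nts was not tested. Of the 8 tested markers, Nrp2 included, 5 were lower and 3 higher in CR, called or not. In CREX against EX 6 were lower and 2 higher. Their median log2 fold changes were -0.18 and -0.52. Over all genes tested the medians were 0.0045 and -0.0020, and 6.86% and 2.63% were called lower. Lyve1, which was among those higher in CR, averaged 1.42 CPM in control and 2.60 in CR (log2 fold change 0.87, adjusted p = 0.0844). The chemokine Ccl21a was among those lower in CR, with a log2 fold change of -0.49, and -1.14 without CR replicate 2 (adjusted p = 0.0641). Its libraries held 1.62 to 3.65 CPM in EX and 0.636 to 1.63 in CREX. Prox1, the defining lymphatic factor, was at 0 to 5 counts in control, 0 to 7 in CR and up to 33 in CREX, too few to test.

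**Figure D4:**
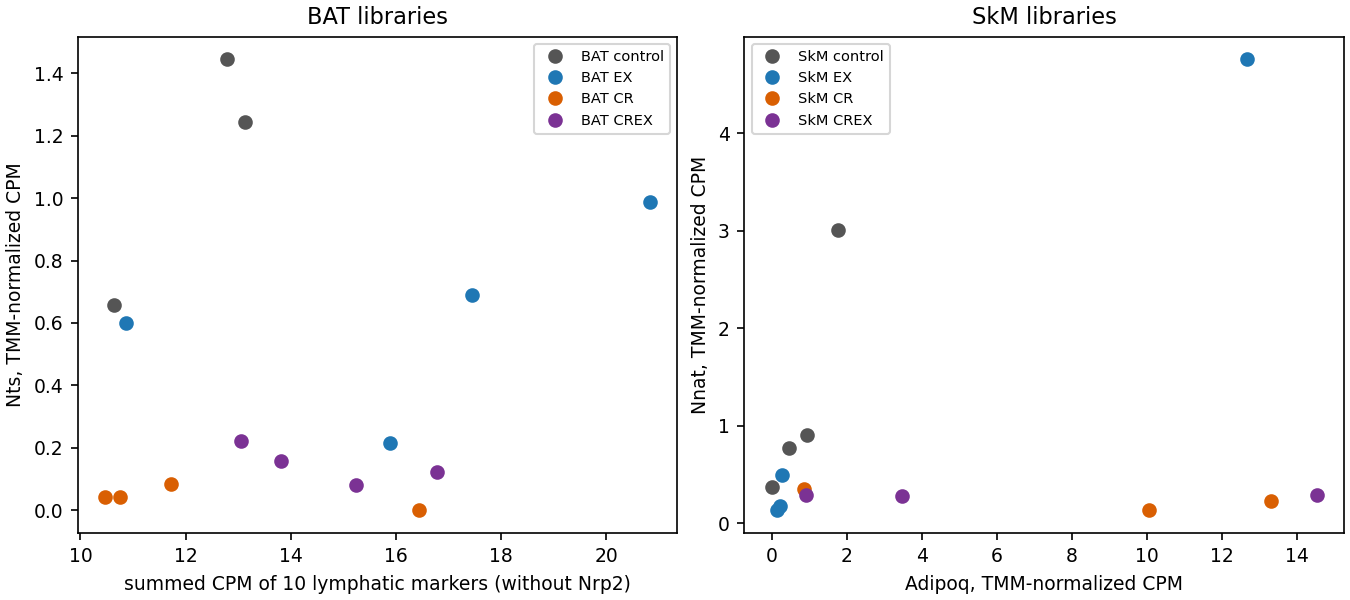
Left, Nts (TMM-normalized CPM) against the summed CPM of the 10 lymphatic markers without Nrp2 in each BAT library. Right, Nnat against Adipoq (TMM-normalized CPM) in each SkM library; points are libraries, coloured by group. Every CR library has less Nts than every control library, and the marker sums of these groups overlap. In SkM, 3 restricted libraries with high Adipoq have Nnat below 0.3 CPM.

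Sums over 5 B cell markers ran from 1.40 to 2.13 CPM in control and 1.24 to 2.04 in EX, but 0.191 to 0.246 in CR and 0.124 to 0.357 in CREX, and the only one tested, Cd79a, was called lower in both comparisons. The Schwann cell list was called lower for 1 of 6 genes, S100b, which brown adipocytes also express (-1.42, adjusted p = 0.00155 and -1.21, adjusted p = 0.000281 on the log2 scale). Its sum, S100b included, was 75.9 to 105 CPM in control and 42.7 to 57.2 in CR. Of the 6 genes, 4 were lower and 2 higher in CR, with a median log2 fold change of -0.13. In CREX against EX all 6 were lower, with a median of -0.65. The 7 fibroblast markers summed to 188 to 228 CPM in control and 126 to 165 in CR, with 3 called lower in CR. Blood endothelium markers summed to 495 to 551 CPM in control and 359 to 462 in CR, and were called lower for 2 of 12 in CR and 1 of 12 in CREX. For all lists here, the share called lower over all genes tested was 6.86% in CR and 2.63% in CREX against EX. The 5 macrophage markers summed to 32.8 to 36.0 CPM in control, 36.0 to 57.0 in EX, 18.6 to 31.1 in CR and 19.5 to 37.2 in CREX, and 1, Mrc1, was called lower in CR. The 12 brown adipocyte markers summed to 14915 to 16655 CPM in control and 13760 to 14649 in CR, with 3 called lower in CR (Ucp1, Prdm16 and Plin1) and 2 in CREX. Mesothelium markers ran the other way, at 2.30 to 3.90 CPM in control, 3.59 to 6.08 in EX, 6.75 to 8.83 in CR and 6.24 to 9.44 in CREX, and Lrrn4, the only one tested, was called higher in CR. The 8 neuron markers summed to 1.93 to 2.06 CPM in control and 1.57 to 2.15 in CR, and 5 of them were at 0 in every control library. The part of these cells in the fall of the members was not tested. Several of these calls were lost when 1 library was left out. In CR this held for the endothelial Cldn5 (CR replicate 1 or 4, control 2 or 3). It also held for Mrc1 (CR 3 or 4, control 1, 2 or 3) and the fibroblast marker Cd34 (CR 1, 3 or 4, control 1 or 2). In CREX the endothelial Plvap call was lost without any 1 CREX library or EX replicate 2, 3 or 4, and that of Ucp1 without EX replicate 2.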

How the data were processed

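RNA of BAT and SkM was sequenced as paired-end reads, which the authors trimmed, mapped to mm10 (STAR 2.7.10a) and quantified with RSEM. The deposited values are the expected counts from RSEM for each gene symbol, without normalization. The RSEM command in the methods names no strand option, and the annotation and a single RSEM version are not given in the sources used here. Of the 24770 symbols 27 were turned into dates and 2 are duplicated, none of them a member. Expected counts were rounded. Each comparison was fitted on its own groups with edgeR 4.0.16 (R 4.3.3, robust quasi-likelihood, TMM, filterByExpr), or without the filter for a member below it. The standard error is the log2 fold change divided by the square root of F. DESeq2 1.42.0 was an alternative; the thresholds follow the study, which used DESeq2. Others were RLE factors, no filter, 1 fit over all groups, a replicate block, a muscle marker covariate, each library left out and, chosen after seeing the data, an adipocyte covariate in SkM, exact permutation tests on mean log2(CPM + 0.5), fits without the filter for low members (also with a library left out), each library left out for genes of the lists and the lymphatic sum without Nrp2. Count ratios carry 95% Clopper-Pearson intervals, floors are 3 counts, and both cover counting error only. The fits were tested on simulated data.

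Groups came from the sample labels. Nothing in the labels says how mice shared cages or batches. Replicate numbers recur across groups but were not taken as pairs. The members and gene lists were chosen with earlier results of these data known. The genes named are the members, the 3 most similar genes and the nearest genes, the receptors, host gene and relatives of members, and called or abundant genes of the lists. Rassf9, S100b, Lyve1 and Ccl21a are described at length after their values were seen. Sequences and positions are from RefSeq and GENCODE M21 for GRCm38, the build of mm10. Figures used Python 3.11.15 and matplotlib 3.10.9.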

Additional observations from a re-analysis of the deposited data

Results flagged for a closer look

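Among 14 groups of 4 libraries examined for a library far from the rest, 2 stood out, where chance gives about 1 in 20. Nnat in SkM was 4.76 CPM in the first EX library and at most 0.495 CPM in the other 3, a gap of 0.923 of the whole range. This library also had 12.7 CPM of Adipoq. Shisa9 in SkM was 0.0463 CPM in the first control library, which is 1 count, and 0 in the other 3, a gap of 1 of the range. A single read against 0 in the other libraries gives that gap by construction, so the rate of 1 in 20 does not apply to it.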

How the results depend on the processing

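Of 256 alternative values for 20 member comparisons, 223 kept their direction and, where tested, their side of the threshold. In the BAT restriction comparisons, which chose the members, and where there was no test, only the size was set against the spread between libraries, and no call is made. In BAT CR against control, Nts stood at -4.78 (log2 fold change) with the muscle covariate and -4.99 with the replicate block, and at -5.02 to -4.18 with 1 library left out. Shisa9 there was -4.14 with the block and -5.41 to -4.13 with a library left out, and in CREX against EX -1.66 to -0.91. Nnat values near 0 changed sign. In BAT EX against control they ran from -0.37 to 0.46 without 1 library, and in CREX against CR from -0.35 to 0.074, with 0.50 under the muscle covariate. In SkM EX against control Nnat was -0.35 with the replicate block, -1.79 with the adipocyte covariate and -2.18 to 1.02 without 1 library. There Nts was 0.011 with the adipocyte covariate and -0.46 to 0.22 without 1 library. Nnat in SkM CREX against CR ran from -0.032 to 0.61 and in CREX against EX from -2.65 to 0.061. In SkM CR against control Nnat was -2.38 and called by DESeq2, and -2.74 to -2.10 without 1 library where it passed the filter. Without control replicate 1, 3 or 4 it missed the filter, and fits with no filter gave -1.49, -2.54 and -2.51. Calls over all genes in BAT CR against control fell from 1430 to 929 with the replicate block. In BAT CREX against EX the 594 calls fell to 363 to 582 without 1 library. In BAT EX against control edgeR's 0 became 37 with DESeq2, 7 without the filter, 1 with the block, the muscle covariate or all groups in 1 fit, and 0 to 2 without 1 library. In BAT CREX against CR 1 became 28 with DESeq2, 51 with the block, 3 without the filter, 0 with the muscle covariate and 0 to 5 without 1 library. In SkM the counts were 455 with the adipocyte covariate against 1264 (CR against control). They were 646 with the block and 343 to 2570 without 1 library against 1163 (CREX against EX). For EX against control, 10 became 50 with DESeq2, 31 without the filter, 0 in 1 fit, 1 with the block and 1 to 19 without 1 library. For CREX against CR, 0 became 36 with DESeq2 and up to 99 without 1 library. The cause of these shifts was not tested. The replicate block changed no call of a member in the comparisons that were tested.

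The libraries of a comparison that carry the same number share only that number: their deviations from the group means correlated at -0.270 to 0.163 on average over the comparisons, and in no comparison did every library correlate best with its own number. Values of Nts and Shisa9 under restriction rest on 0 to 5 counts per library, so their folds are loosely bounded. The replicate error of Nnat exceeds its counting error. The mean Nnat level in SkM CREX was 0.286 CPM with TMM and 0.302 CPM without it.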
